A study of Homo sapiens with 4 samples.

Results

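Genes of the WNT pathway that beta-catenin is known to switch on, together with beta-catenin itself, were followed in HCT116 cells depleted of LAS1L. HCT116 is an established human colorectal carcinoma line. The members were 10 genes: AXIN2, LGR5, ASCL2, RNF43, ZNRF3, DKK1, NKD1, TCF7, LEF1 and CTNNB1. Every probe of the deposited value table whose annotated gene symbol is one of these was taken, which gave 17 probes of 9 genes among 47323 probes. TCF7 had no probe under its symbol, gene ID or transcript accessions, and is not analysed here. The study compared cells given Las1L siRNA #1 or Las1L siRNA #2 (1 array each) with cells given control siRNA (2 arrays), all at 40 nM for 72 h, on Illumina HumanHT-12 v4 bead arrays. LAS1L is a nucleolar protein needed to process precursors of ribosomal RNA, and the series asks how cancer cells respond to nucleolar stress. The siRNAs were lipid-transfected into the same line, and no label says that the control arrays came from separate cultures, so the p-values measure only the spread between these arrays, which may be technical. Each Las1L array stands for its own siRNA, and any difference between the siRNAs is part of the spread within that group.

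In the canonical WNT pathway a secreted ligand binds Frizzled receptors with an LRP coreceptor and blocks the destruction complex, in which AXIN, APC, casein kinase and GSK3 mark beta-catenin for degradation. Beta-catenin, encoded by CTNNB1, then enters the nucleus and acts with DNA-binding TCF/LEF proteins. HCT116 cells carry a deletion of a phosphorylated serine in an allele of CTNNB1, which stabilises the protein, so that the pathway depends less on ligand. Many of the targets feed back on the pathway at the destruction complex, at the receptor or outside the cell. An array reads messenger RNA and not the amount of beta-catenin protein, which is the regulated step.

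The siRNAs are shown because they are what separates the groups. These are the strands as the labels give them, 5′ to 3′ in lower case, without the overhanging deoxythymidines, each of 19 bases.
Las1L siRNA #1: cugauacgcuguaagcucu
Las1L siRNA #2: cauuuauacccagagugga
Control siRNA: gaucauacgugcgaucaga

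The LAS1L probe (ILMN_1774890) gave signals of 211.5 with siRNA #1 and 158.1 with siRNA #2, against 770 and 717.5 on the control arrays. LAS1L was lower on both Las1L arrays, with a log2 fold change of -2.02 (SE 0.19). The adjusted p was 0.0555 in limma without an intensity trend and 2.33e-07 in limma with one. Signals are intensities on a linear scale and can be negative, as after background subtraction. A background limit of 28.1 units was set from the values below 0, and the 17689 probes that exceeded it on 2 or more of the 4 arrays were tested. Values under 16 were set to 16 before log2 was taken. Each member was tested in limma with Benjamini-Hochberg adjustment over all tested probes, first without a trend and then with the prior variance following mean signal. Without a trend 0 of the 17689 probes passed an adjusted p of 0.05 in limma (0.0% called), 4266 had an unadjusted p under 0.05, and the lowest adjusted p was 0.0523. With the trend 2798 passed, 15.8% of tested probes, with 8.12% higher and 7.7% lower. Below, "rose" and "fell" are used of genes past the trend fit's threshold, none of which passed the fit without it. An exact permutation of 2 arrays against 2 cannot give a two-sided p below 0.333, so none is given for single probes. Of the fixed epithelial markers, EPCAM, KRT8, KRT18, KRT19 and CDH1 were above the limit and VIL1 was at background on all 4 arrays. By the probe of highest mean signal 1 of the 5 tested genes passed in limma with the trend, beside 18.8% of all 10466 tested genes. The gene that passed was CDH1, at a log2 fold change of 0.43 (adjusted p = 0.0330 in limma with the trend). Of the KRT18 probes, ILMN_1730848 fell by 0.57 (adjusted p = 0.0301 in limma with the trend), while the brighter ILMN_1803408, at -0.040, did not pass. Of 16 probes for fibroblast, endothelial and leukocyte markers, 10 were under the limit on every array, including those of COL3A1, PECAM1, VWF and PTPRC. VIM probe ILMN_1782538 was above the limit on all 4 arrays. It read 303.1 and 244.2 with Las1L siRNA, against 224.2 and 242 with control siRNA. A probe each of CD14, COL1A1 and LYZ was above the limit on 3 arrays, and another VIM probe and a COL1A2 probe on 2. The summed signal of the 16 was 464 and 381.1 on the Las1L arrays, against 328 and 411.5 on the control arrays, and 0 of the 5 tested genes passed in limma with or without the trend (1 at an unadjusted p under 0.05 without it). The part of these markers in the results was not tested. In bulk RNA, fewer cells with a transcript and less transcript per cell cannot be told apart.

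Of the WNT members, DKK1 was the only gene that rose. AXIN2, RNF43, ZNRF3 and CTNNB1 each had a probe above background on all 4 arrays, and LEF1 had 1 close to the limit on 3 of the 4. None of these 5 genes passed either fit. LGR5, ASCL2 and NKD1 were at background in both groups. Of 17 member probes 7 were tested, covering 6 genes. In limma without a trend 0 of the 7 passed, where 2 had an unadjusted p under 0.05. With the trend 1 passed, or 14.3%, beside 15.8% of all tested probes. The groups did not overlap at 4 of the 7 probes, beside 55.8% of all tested probes. At these 4, or 57.1% of the 7, the Las1L arrays were the higher, beside 28.0% of all tested probes. At 0 of the 7 were they the lower, beside 27.9%. Among the 4 is LEF1, where 1 control array was under the limit, so the filter favoured higher Las1L values there. A shared direction of the 7 probes was not tested. The median log2 fold change over the 7 was 0.12, against 0.00 over all tested probes. CTNNB1 supplied 2 of the 7 probes, which share their target.

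**Figure D1:**
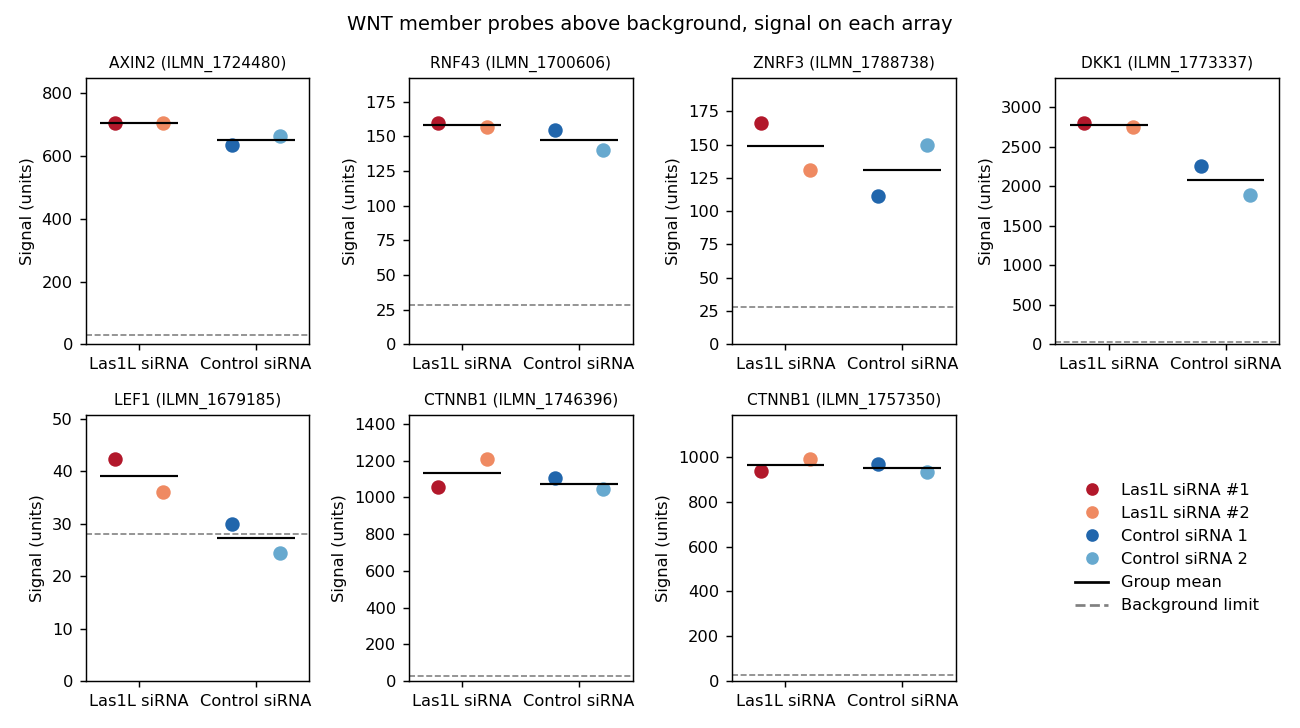
Signal in linear units (y axis, from 0) on each array for the 7 member probes that were tested, with Las1L siRNA arrays left and control siRNA arrays right. Points are single arrays, black lines are means of 2 arrays and the dashed line is the background limit of 28.1 units. The groups are separate for AXIN2, RNF43, DKK1 and LEF1 and overlap for ZNRF3 and both CTNNB1 probes.

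CTNNB1 had 7 probes, of which 2 gave signal well over the limit. Probe ILMN_1746396 read 1057.5 with siRNA #1 and 1207.4 with siRNA #2, against 1104.8 and 1046.9 with control siRNA. Probe ILMN_1757350 read 939.9 and 990.3 on the Las1L arrays, against 970.8 and 933.8 on the control arrays. The groups overlapped at both probes. Their log2 fold changes were 0.071 (95% interval -0.15 to 0.29 in the trend fit) and 0.019 (-0.19 to 0.23). As folds, these intervals run between 0.903 and 1.22 for the first probe and between 0.875 and 1.17 for the second. The adjusted p in limma was 0.797 and 0.944 without the trend. The other 5 CTNNB1 probes read between -10.0 and 29.3 units, and only ILMN_1808436 passed the limit on any array, at 29.3 on the second control array.

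LEF1 and TCF7 belong to the TCF/LEF family through which beta-catenin reaches DNA, and both genes are themselves targets in colon cancer cells. LEF1 probe ILMN_1679185 read 42.3 with siRNA #1 and 36.0 with siRNA #2, against 30.0 and 24.5 with control siRNA. Both Las1L arrays were above both controls, but the second control array was under the background limit and every value lay close to it. The log2 fold change was 0.53, with an adjusted p of 0.177 in limma without the trend and 0.425 with it, where the 95% interval ran from -0.32 to 1.37. It became 0.18 when an offset of 64 replaced the floor, and 0 with a floor of 50, which lies above all 4 values. The other LEF1 probe (ILMN_2213136) read -20.4 and -32.7 on the Las1L arrays, against -21.3 and -29.0 on the control arrays, all at background.

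AXIN2, a scaffold of the destruction complex whose induction by beta-catenin is a standard readout of the pathway, had 1 probe (ILMN_1724480). It read 704 with siRNA #1 and 706.4 with siRNA #2, against 636.2 and 663.3 with control siRNA. The Las1L arrays lay close together and above both controls. The mean difference was 8.56% (log2 fold change 0.12, SE 0.11 in both fits), and its adjusted p in limma was 0.587 without the trend and 0.506 with it. The 95% interval of the fold in the trend fit was 0.929 to 1.27. NKD1, an inhibitor that binds Dishevelled, read -1.2 and -4.8 on the Las1L arrays, against 6.1 and -11.0 on the control arrays. Its values lay around 0 in both groups and no difference was detectable.

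DKK1, a secreted inhibitor that binds the LRP coreceptors, rose. Probe ILMN_1773337 read 2801.6 with siRNA #1 and 2745.5 with siRNA #2, against 2258.6 and 1889.9 with control siRNA. Both Las1L arrays exceeded both controls, and the gap between the controls was wider than the gap between the Las1L arrays. The mean was 2774 ± 39.7 units in Las1L siRNA cells and 2074 ± 261 units in control siRNA cells (SD, n = 2 each). The fold was 1.34 (log2 fold change 0.42, SE 0.10 in the trend fit), with a 95% interval of 1.16 to 1.55. The adjusted p was 0.00802 in limma with the trend and 0.184 without it. With the trend the adjusted p in limma became 0.24 without the siRNA #1 array, 0.241 without the siRNA #2 array and 0.0829 without the second control array, where the log2 fold change was 0.30, and it was 0.194 with a floor of 50. The second DKK1 probe (ILMN_2174189), annotated to the same transcript accession, was at background on all arrays, with -15.7 and 1.4 with Las1L siRNA, against 0.3 and -15.1 with control siRNA. The rise therefore rests on 1 of the gene's 2 probes.

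The DKK1 promoter is shown because DKK1 was the member that rose and because its window holds the TCF/LEF core. RefSeq promoter windows of GRCh38.p14, each covering 250 bases before and 50 after a gene's start, were matched by symbol for 5 members (DKK1, RNF43, TCF7, LEF1 and CTNNB1), in 7 windows. The core CTTTGA was searched on both strands, where TCAAAG is the same core on the opposite strand. No other form of the core was searched, so any window, that of DKK1 included, may hold other forms that are not counted or marked here. CTTTGA was found on either strand in 1 of the 7 windows, that of DKK1, and in 12.9% of all 35116 windows. It was on both strands in 0.681% of all windows. In DKK1 it occurred once on each strand, with first bases at -149 (opposite strand) and -95 (same strand) from the start site. The capitals below mark both occurrences. A match describes these letters and is not a measured binding site.
DKK1 promoter, chr10:52314031-52314280, plus strand: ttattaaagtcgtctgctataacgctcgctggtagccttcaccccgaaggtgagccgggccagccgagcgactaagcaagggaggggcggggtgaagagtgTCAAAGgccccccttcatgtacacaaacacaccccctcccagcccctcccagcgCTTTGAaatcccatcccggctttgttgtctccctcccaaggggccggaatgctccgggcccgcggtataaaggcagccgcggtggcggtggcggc

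RNF43 and ZNRF3 are related membrane ubiquitin ligases that remove Frizzled receptors from the cell surface and so damp WNT signalling. RNF43 (ILMN_1700606) read 159.7 with siRNA #1 and 156.5 with siRNA #2, against 154.6 and 140.1 with control siRNA. The Las1L arrays were above both controls by less than the gap between the controls. Its log2 fold change was 0.10 (95% interval -0.25 to 0.46 in the trend fit), with an adjusted p of 0.75 in limma with the trend. ZNRF3 (ILMN_1788738) read 166.5 and 131 on the Las1L arrays, against 111.6 and 150.1 on the control arrays. The groups overlapped, since the siRNA #2 value lay between the controls. The log2 fold change of ZNRF3 was 0.19 (-0.23 to 0.61), with an adjusted p of 0.584 in limma with the trend, and it was -0.023 without the first control array.

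LGR5, the R-spondin receptor that marks intestinal stem cells, and ASCL2, a transcription factor of the same cells, were not detected above background. LGR5 (ILMN_1702310) read -3.4 and 2.0 on the Las1L arrays, against -11.6 and 8.8 on the control arrays. ASCL2 (ILMN_1723412) read 5.3 and 4.5 on the Las1L arrays, against -0.7 and -3.4 on the control arrays. Together with NKD1, these 3 genes stayed between -11.6 and 8.8 units, and no fold is given for them. At 9 of the 17 member probes all 4 arrays were under the limit, so a change below the reach of the array would not be seen there.

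**Figure D2:**
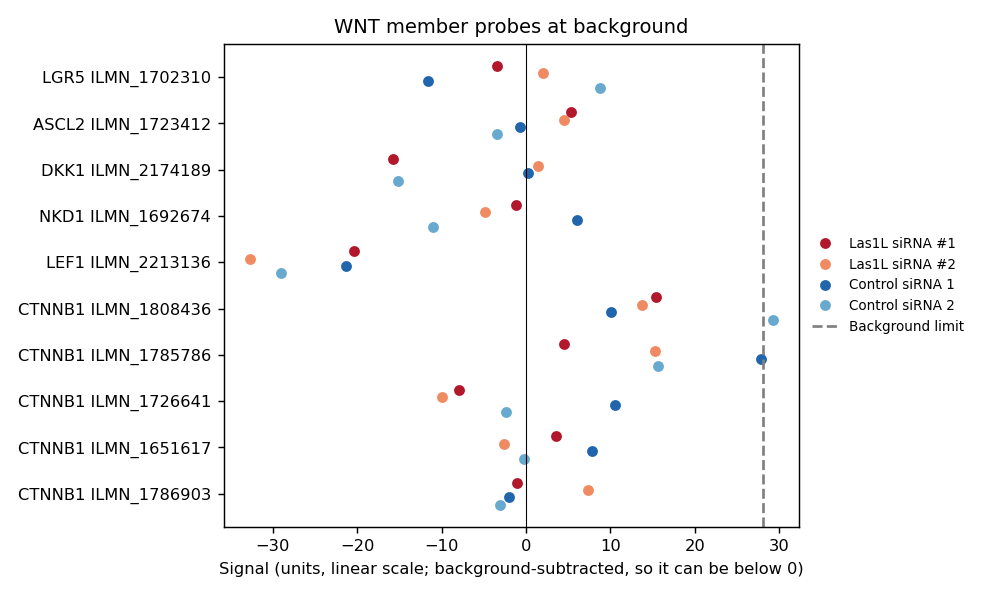
Signal in linear units (x axis) on each array for the 10 member probes that were not tested, 1 row per probe, with the background limit of 28.1 units as a dashed line. Values scatter around 0 for LGR5, ASCL2 and NKD1, and only 1 value, of a CTNNB1 probe on the second control array, exceeds the limit.

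The siRNAs were compared separately, in limma with each siRNA as a group of its own. Only the control pair then gives a spread (1 residual degree of freedom), and it is taken to hold for the single arrays too. Both comparisons share the control arrays. For DKK1 the log2 fold changes were 0.44 (siRNA #1) and 0.41 (siRNA #2), and for AXIN2 0.12 with each. ZNRF3 had 0.36 and 0.017, LEF1 0.64 and 0.41, and CTNNB1 probe ILMN_1746396 -0.024 and 0.17. None of the 7 member probes passed for either siRNA (0 in limma without the trend and 0 with it, where 1 had an unadjusted p under 0.05 with the trend for each siRNA). Over all 17689 probes 0.0% were called for either siRNA. Directly between the siRNAs 0 member probes passed in limma with or without the trend, and 0 had an unadjusted p under 0.05. The difference for DKK1 was 0.03, with a 95% interval of -0.40 to 0.46 in the trend fit, and that for ZNRF3 was 0.35 (-0.40 to 1.09). With 1 array each, these intervals are too wide to show that the siRNAs act alike.

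**Figure D3:**
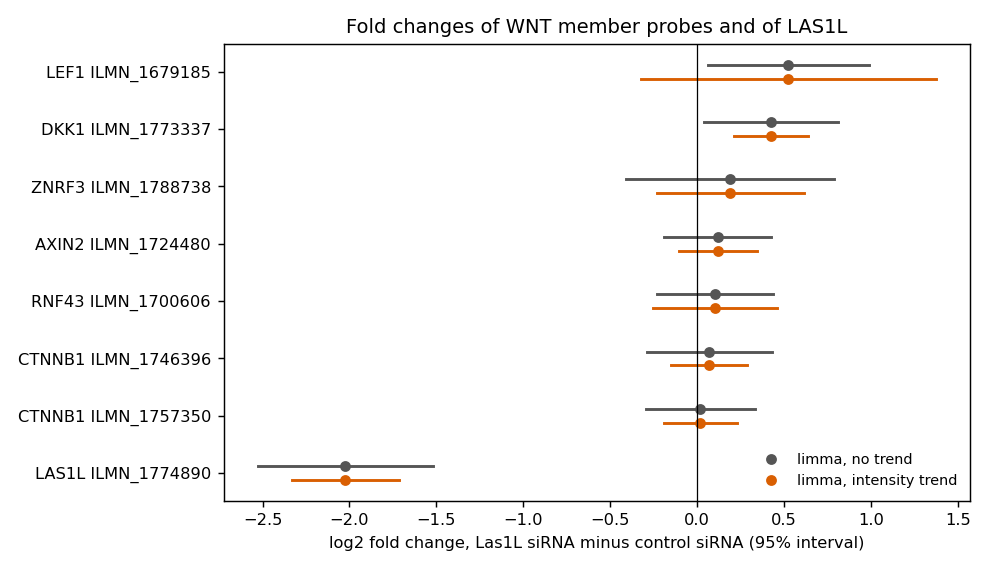
Log2 fold change of Las1L siRNA minus control siRNA (x axis) with 95% intervals, for the 7 tested member probes and LAS1L, from limma without a trend (grey) and with an intensity trend (orange). The LAS1L interval lies far below 0, the DKK1 interval lies above 0 in both fits before adjustment, and those of AXIN2, RNF43, ZNRF3 and CTNNB1 include 0, as does that of LEF1 with the trend.

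The rest of the pathway was described from 6 lists of 120 genes. Of these 118 had a probe and 63 were tested, each by its tested probe of highest mean signal. With the trend 7 rose and 6 fell, or 20.6%, beside 18.8% of all 10466 tested genes (9.64% higher and 9.17% lower), and 0 passed in limma without the trend, with 17 at an unadjusted p under 0.05. The median log2 fold change was -0.01. All 13 calls were lost without either Las1L array and with a floor of 50. Without the first control array the fit called 7 genes, 6 of them among the 13. Of the genes named below, WNT2B, WNT16, FZD9, TNKS and PYGO2 were tested only because both control arrays exceeded the limit. The filter thus favoured lower Las1L values at these genes, and their p-values are not read as support. WNT2B, FZD9 and PYGO2 are among the 17 at an unadjusted p under 0.05.

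Among other transcriptional targets 2 of 16 tested genes rose and 5 fell, beside 9.64% and 9.17% of all tested genes. Like the other lists, this list was chosen with earlier results of these data known, so its counts describe only the genes chosen. CCND1, the cyclin D1 gene, read 7942.2 and 8903.5 on the Las1L arrays, against 4972.4 and 4995.8 on the control arrays. That was 1.69-fold (log2 fold change 0.75, SE 0.09 in the trend fit), with an adjusted p of 3.5e-05 in limma with the trend and 0.0725 without it. ID2, an inhibitor of helix-loop-helix factors, rose by 0.52 on the log2 scale, and its other probe also passed, at 0.46. CDCA7 read 1765.4 and 1679 with Las1L siRNA, against 2580.8 and 2718.1 with control siRNA, and fell by 0.62 (adjusted p = 2.36e-04 in limma with the trend). PLAUR, the urokinase receptor, fell by 0.73, FOSL1, an AP-1 subunit, by 0.68, SLC12A2, an ion cotransporter, by 0.56 and FERMT1, a focal adhesion protein, by 0.44. The other PLAUR probes (-0.35 and -0.42) and the other SLC12A2 probe (-0.57) did not pass. BMP4 (0.36), SOX4 (0.28), SOX9 (-0.20) and TNFRSF19 (-0.27) did not pass.

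Among ligands and the proteins that export them 2 of 6 tested genes rose, beside 9.64% of all tested genes. WNT3A, a canonical ligand, read 177.6 and 207.6 with Las1L siRNA, against 127.8 and 136.1 with control siRNA (log2 fold change 0.54, adjusted p = 0.0392 in limma with the trend). WLS, the carrier that brings WNT proteins to the cell surface, rose by 0.49. The 5 tested WLS probes did not all move alike, as 2 passed, at 0.49 and 0.42, and 1 had a log2 fold change of -0.24. WNT2B was under the limit on both Las1L arrays (5.9 and 18.6, against 41.9 and 41.6 on the control arrays, which are close to the limit). WNT2B was tested only because of its control arrays, and it passed neither fit. WNT16 lay under the limit on both Las1L arrays, and WNT3 (0.17) and WNT7B (-0.13) did not pass. Of the 13 tested receptors and R-spondin genes 0 passed in limma with or without the trend (2 at an unadjusted p under 0.05 without it). With the trend 18.8% of all tested genes passed. Among the 13 were FZD1 (log2 fold change 1.05, 1 control array under the limit), FZD3 (0.37), FZD9 (under the limit on both Las1L arrays) and RYK (-0.23).

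In the group of Dishevelled and destruction complex genes 2 of 11 rose, beside 9.64% of all tested genes. BTRC, the ubiquitin ligase subunit that recognises phosphorylated beta-catenin, read 95.5 and 88.2 on the Las1L arrays, against 43.1 and 25.6 on the control arrays, the lower of which is under the background limit, so the size of its fold rests in part on background. Its log2 fold change was 1.47 (SE 0.31 in the trend fit, adjusted p = 0.00437 in limma with the trend). CSNK1E, a casein kinase, rose by 0.33, while its other probe, at 0.28, did not pass. GSK3B (0.21), CSNK1D (0.16), DVL2 (-0.16) and TNKS (under the limit on both Las1L arrays) did not pass.

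Among nuclear partners of beta-catenin 1 of 13 rose and 1 fell, beside 9.64% and 9.17% of all tested genes. CTNNBIP1, an inhibitor that keeps beta-catenin from binding TCF factors, read 63.2 and 89.8 with Las1L siRNA, against 18.8 and 32.1 with control siRNA (log2 fold change 1.62, SE 0.37 and adjusted p = 0.00671 in limma with the trend). Its first control value was under the limit and the other just above it, so the size of that fold rests in part on background. TLE5, a short member of the Groucho corepressor family, read 475.5 and 511.3 with Las1L siRNA, against 790.7 and 699.1 with control siRNA, and fell by 0.59. Its other probe, at -0.57, had an adjusted p of 0.0522 in limma with the trend. PYGO2, a coactivator, read 13.3 and 23.4 with Las1L siRNA, both under the limit, against 39.0 and 59.2 with control siRNA. It was tested only because of its control arrays, and it passed neither fit. MED12 (0.52), BCL9 (-0.22) and CBY1 (-0.22) did not pass. The 4 tested secreted and surface inhibitors besides DKK1 were SOST (0.35), KREMEN2 (-0.26), KREMEN1 (-0.29) and TPBG (0.12). Of these 0 passed in limma with or without the trend (0 at an unadjusted p under 0.05 without it). With the trend 18.8% of all tested genes passed. The 13 others of that list were not tested for lack of signal. The other tested TPBG probe (ILMN_1866954) had the opposite sign, with 26.9 and 26.2 on the Las1L arrays, both under the limit, against 37.5 and 38.3 on the control arrays. It was tested only because both control arrays exceeded the limit, and it passed neither fit.

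**Figure D4:**
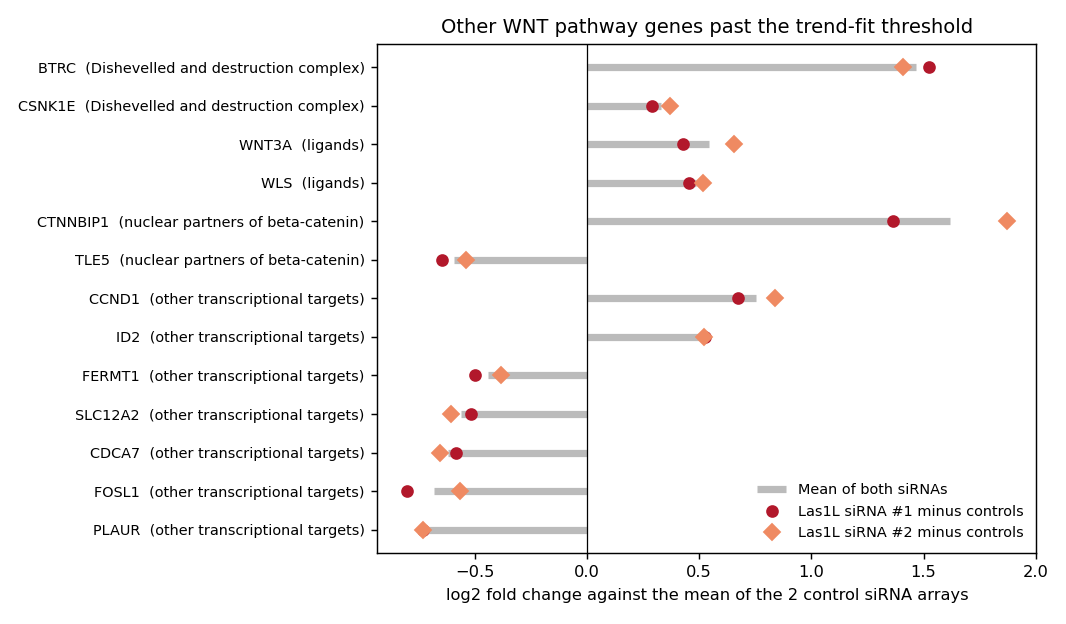
Log2 fold change against the mean of both control siRNA arrays (x axis) for the 13 other WNT pathway genes past the trend fit's threshold, with siRNA #1 as circles, siRNA #2 as diamonds and their mean as grey bars. Both siRNAs lie on the same side of 0 for each gene, which the choice of genes past the threshold and the shared controls favour.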

How the data were processed

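RNA of 4 HCT116 samples was read on Illumina HumanHT-12 v4 arrays. The deposited values are probe intensity on a linear scale, 1 column per array, made in GenomeStudio per the submitters' processing notes, with the version, background and normalization options not given in the sources used here. Each array has a median of 14.9 and 26.9% of values below 0, as after background subtraction and quantile normalization. Another table's 8 columns of values match no sample's labels and were not used, so detection p-values were not used. The background limit is the one-sided 0.05 point of normal noise, whose spread (17.1 units) is the root mean square of all negative values. Probe symbols came from the platform annotation, updated through the RefSeq table of GRCh38.p14. Of the probes 30113 had 1 symbol, 8 several and 17202 none. limma 3.58.1 in R 4.3.3 was run with 2 groups. Its prior weighed 2.21 degrees of freedom without the trend and 13.8 with it. The number of arrays limits the precision.

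Named genes were all members, LAS1L and, from each list, genes past the trend fit's threshold plus up to 4 with the smallest p. The members and lists were chosen with earlier results of these data known. Alternatives were the trend, a floor of 50, an offset of 64, other filters, one probe per gene and leaving out each array.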

Additional observations from a re-analysis of the deposited data

Results flagged for a closer look

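The siRNAs lay on opposite sides of both controls for WNT7B, a WNT ligand, and KREMEN1, a receptor for DKK1. WNT7B read 39.4 with siRNA #1 and 55.7 with siRNA #2, against 50.4 and 52.1 with control siRNA, and the siRNA #1 minus siRNA #2 difference was -0.50 on the log2 scale. KREMEN1 read 27.0 and 71.2 on the Las1L arrays, against 69.3 and 41.2 on the control arrays, a difference of -1.40. The siRNA #1 value of KREMEN1 was under the background limit, so the size of that difference rests in part on background. Each siRNA has 1 array. The share of all tested probes with this order is not given here. These genes therefore do not show that the siRNAs differ. In the 3-group limma fit neither difference passed (adjusted p = 1 for each).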

How the results depend on the processing

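No paired analysis was possible because the numbers of the Las1L arrays name siRNAs and not replicates shared with the controls. Without the trend the count of member probes past the threshold was 0, and became 1 with the intensity trend and 1 with an offset of 64 (DKK1 in both). With the trend the count of 1 became 0 with a floor of 50 and ranged from 0 to 1 without 1 array. For the other WNT genes the count of 0 became 13 with the trend, 2 with a floor of 50, 6 above background on all 4 arrays, 14 with the offset and 3 with one probe per gene. With the trend their 13 became 0 with a floor of 50 and ranged from 0 to 10 without 1 array, which leaves fewer samples. The LAS1L log2 fold change of -2.02 passed the threshold with the trend, above background on all 4 arrays (adjusted p = 0.0132 in limma) and with one probe per gene (0.0268), as it did with the offset at -1.71, and ranged from -2.23 to -1.81 without 1 array. It did not pass without the trend with a floor of 50 (adjusted p = 0.0803 in limma), with no filter (0.225) or without any 1 array (0.22 to 0.281). Leaving out 1 array turned the sign of the small differences of ZNRF3 (-0.023 to 0.40) and of the CTNNB1 probes ILMN_1746396 (-0.024 to 0.17) and ILMN_1757350 (-0.019 to 0.057, with -0.0090 without the second control array). The DKK1 log2 fold change lay between 0.30 and 0.55 in its settings. Counts per siRNA and between siRNAs were 0 in the settings run. The cause of these shifts was not tested. Settings of the trend fit other than the trend itself were chosen after seeing the data. Fold sizes of probes near the limit of 28.1 units rest in part on background.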
